A study of Drosophila melanogaster with 3 samples.

Results

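Sox14 binding was described at 8 genes that encode insulator and architectural proteins of Drosophila melanogaster, namely Chro, Cp190, mod(mdg4), Trl, su(Hw), CTCF, BEAF-32 and Dref. The genes were a fixed list, chosen with earlier results of these data known. All 8 were found by symbol among the 13945 protein-coding genes that Ensembl annotates on 6 chromosome arms. Every summit, the position of highest enrichment in a peak, was taken within each gene and 2 kb on either side. The study was a chromatin immunoprecipitation and sequencing (ChIP-seq) experiment with 1 group, 3 biological replicates of whole white prepupae. The animals came from a transgenic line that expresses Sox14 with GFP fused to its C terminus, males and females were pooled, their age is recorded as unknown, and the antibody was directed against GFP. All samples carried the tagged protein and came from whole animals, so a summit is an average over tissues, and chromatin was sheared to 200 to 800 bp. No control library was analysed here, and the read depth is unknown because the peak lists hold no counts.

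Insulator proteins divide chromosomes into domains and limit which promoters an enhancer can reach. DNA-binding factors such as su(Hw), CTCF and BEAF-32 recognise short sequences and recruit cofactors, among them Cp190 and the proteins of mod(mdg4), that have a BTB domain through which proteins pair. Trl encodes the GAGA factor, which opens chromatin at GA-rich promoters, Dref binds the DNA replication-related element (DRE), which overlaps the sequence that BEAF-32 recognises, and Chro is a chromodomain protein of the decondensed interbands of polytene chromosomes. Sox14 belongs to the HMG-box transcription factors, and the moulting hormone ecdysone induces its gene.

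A summit of the authors' optimal list lay in or within 2 kb of all 8 genes, against 46.5% of all protein-coding genes. That list holds the 9316 peaks of the pooled replicates that passed a limit on irreproducibility. In strength the genes ran from near the top of the list to its middle. The strongest summit ranked 9 of 9316 at Chro, 35 at Trl, 165 at mod(mdg4), 291 at Cp190, 855 at BEAF-32, 2087 at Dref, 3562 at su(Hw) and 5213 at CTCF. A summit at least as strong lay in or within 2 kb of 0.108% of all protein-coding genes for Chro, 0.466% for Trl, 2.19% for mod(mdg4), 3.61% for Cp190 and 8.97% for BEAF-32. The same share was 18.5% for Dref, 27% for su(Hw) and 34.3% for CTCF. Chro and Trl thus lay in the extreme of the list, while su(Hw) and CTCF had summits of a common size.

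**Figure D1:**
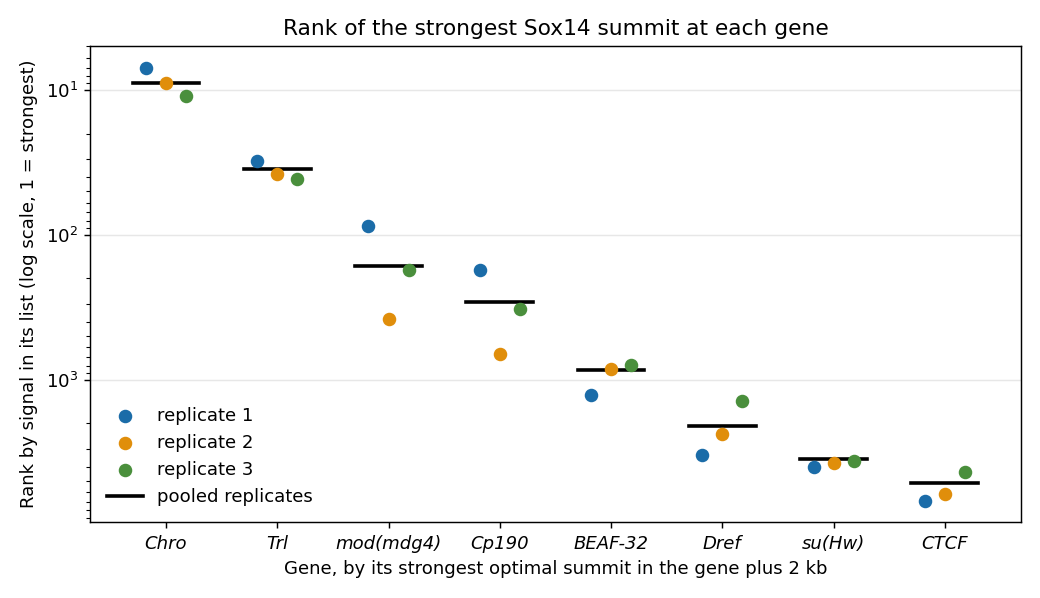
Rank by signal of the strongest summit at each gene (y axis, log scale, 1 is the strongest peak of a list) in replicates 1, 2 and 3 (points) and in the pooled replicates (bars). The genes run from Chro at rank 9 to CTCF at rank 5213, and only the points of mod(mdg4) and Cp190 overlap as neighbours.

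Among the chromatin cofactors, Chro had the strongest summit and no other optimal one. Its peak spanned 22878682 to 22879139 on arm 3L of build dm6, with the summit at 22878898, 86 bp downstream of the outermost transcription start site (TSS) of Chro (FBgn0044324, 22873702 to 22878984, reverse strand). The signal, the authors' own value on a scale that differs between lists, was 2658 in the pooled replicates, and 1013, 830 and 828 in replicates 1, 2 and 3. The peak ranked 7, 9 and 11 there, and the 3 replicate summits lay within 11 bp of each other. The start of Ssl1, a subunit of the general transcription factor TFIIH, lies on the other strand 105 bp from the start of Chro and 191 bp from the summit. The lists do not show on which of these genes a peak acts. Replicates 2 and 3 had other, weak summits in the gene and its flanks, ranked 7605 or lower, and the pool had 1, of rank 14894, beside the start of the neighbour Arf1. The summit lies in the annotated 5′ UTR, and a short stretch around it (RefSeq Release 6 genome, the same build) shows in capitals CGATA read on the other strand, which is part of the DRE.
Chro, chr3L:22878884-22878912, reverse strand: gcagttagtttaaagcTATCGacaggcaa

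Cp190 (FBgn0000283, 15270432 to 15275241 on 3R, reverse strand), the BTB cofactor shared by several insulator complexes, had 2 optimal summits. Both belong to the same peak interval, 15275153 to 15275586. The stronger, at 15275326, was 85 bp upstream of its outermost start, between that start and the start of CG4338 281 bp away on the other strand. Its signal was 744 in the pool, and 326, 173 and 243 in replicates 1, 2 and 3, where it ranked 176, 661 and 323. Replicate 2 gave the lowest of these ranks, and the 3 replicate summits spread over 61 bp. The weaker summit, at 15275534 with a signal of 239 and rank 2615, was 12 bp from the start of CG4338. None of the 3 replicate lists had a summit within 100 bp of it, and replicates 2 and 3 placed their summit at 15275394 and 15275381, between both pooled positions.

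At mod(mdg4) (FBgn0002781, 21350846 to 21377401 on 3R, reverse strand) the strong summit lay inside the gene. The locus makes many proteins that share their first exons and differ in their last, and some of these last exons are joined by trans-splicing from separate precursor RNAs, which the annotation lists as genes named pre-mod(mdg4) on both strands. All annotated mod(mdg4) transcripts share 1 start, at 21377401. The strongest summit, at 21365441, was 11960 bp downstream of it and 47 bp from the start of pre-mod(mdg4)-E at 21365488. Its signal was 950 in the pool, and 426, 219 and 309 in replicates 1, 2 and 3, with ranks of 87, 384 and 176. A cluster of precursor starts on both strands lies there, at 21365290 and 21365488 on the reverse strand and at 21365609 on the forward strand.

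The shared start of mod(mdg4) had far weaker summits. The nearest optimal one, at 21376510 in an intron, was 891 bp downstream with a signal of 122 and rank 6702, and it ranked 7711, 7656 and 8246 in replicates 1, 2 and 3. At the start itself a summit 28 bp upstream was found only outside the optimal list. That summit belonged to the relaxed list of 30000 peaks of the pool, which holds background by design, with a signal of 76.6, rank 10820 and a q value of 0.00134. It ranked 14971, 9936 and 7629 in replicates 1, 2 and 3. The other precursor starts had no summit in the pool. At 21359768, where 8 precursors start, replicates 2 and 3 had summits at 21359591 and 21359679 with ranks of 7901 and 11803, and replicate 1 had none. Replicate 2 had another at 21359812, of rank 15213, 44 bp from that start, and replicate 3 had one of rank 21613, 135 bp from the precursor start at 21360176. At 21373575 only replicate 2 had one, with rank 8819. The last 2 optimal summits within 2 kb of the gene were at other genes. One, with a signal of 374 and rank 1230, was 218 bp from the start of tin, a homeodomain factor of heart development. The other, with a signal of 128 and rank 6315, was 170 bp from the start of aus, and replicate 2 alone had a summit within 100 bp of it, while replicate 1 had one at 21349936 and replicate 3 had one at 21349895 and another, of rank 7385, at 21349636, 35 bp from the aus start.

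**Figure D2:**
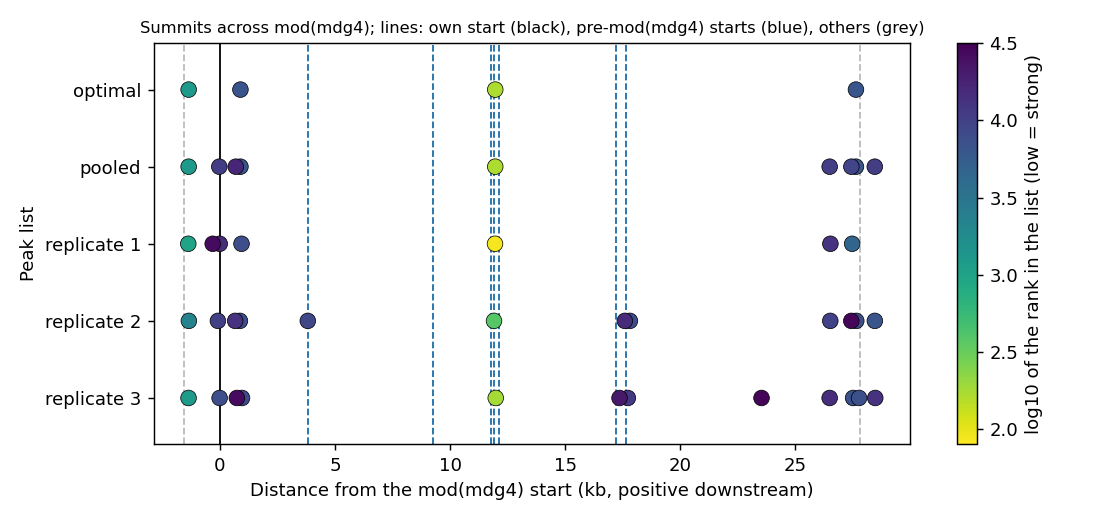
Summits across mod(mdg4) and 2 kb on either side, by distance from its start (x axis, kb) in each of 5 peak lists (rows); the colour gives log10 of the rank, light for strong. The summit near the cluster of precursor starts, 11960 bp downstream in the pool, is the strongest in every list, and the start itself (black line) has a weak summit outside the optimal list.

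The stretch centred on this internal summit shows a palindrome in capitals, made of 2 overlapping copies of TGCATA, a word from the middle of the su(Hw) motif that was sought on both strands. The copies were centred 7 and 5 bp from the summit. Of the 20 optimal summits at the 8 genes this was the only one with that word within 50 bp (5%), against 7.48% of all optimal summits.
mod(mdg4), chr3R:21365427-21365455, reverse strand: attagtaccaataccaaTATGCATAtttt

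Among the sequence-specific factors, Trl (FBgn0013263, 14747929 to 14761049 on 3L, reverse strand) had the most summits, 6 in the optimal list. The strongest, at 14759517, lay in an intron, 1532 bp downstream of the outermost start at 14761049 and 1555 bp upstream of the start at 14757962, which Trl shares with CG42507. Its signal was 1668 in the pool, and 653, 498 and 522 in replicates 1, 2 and 3, with ranks of 31, 38 and 41. The next, at 14757209 with a signal of 481 and rank 776, was 127 bp downstream of the innermost start, and ranked 836, 819 and 727. A summit at 14756221 had a signal of 361 and rank 1318. Its signal was 124, 122 and 123 in replicates 1, 2 and 3, with ranks of 1356, 1307 and 1308. The remaining summits had signals of 185, 118 and 116. That of 118, at 14761942, lay between the start of Tsen34, at 14761844, and that of the neighbour Mgat4a, a glycosyltransferase, 86 bp away. In replicate 2 its summit was nearest to the start of Tsen34, 79 bp away. Replicate 3 had no summit within 100 bp of the pooled one but one at 14762303, of rank 5049. The weakest ranked 14627, 4211 and 6947 in replicates 1, 2 and 3, so its place varied widely. The relaxed list of the pool added a summit of signal 84.3 and rank 9907, 284 bp upstream of the start shared with CG42507. All 3 replicates had a summit within 100 bp of that one, at ranks of 9835, 7782 and 10445. The 50 bases on either side of the strongest summit are given because they held none of the 7 words sought. Neither GAGAG, which the GAGA factor binds, nor the Sox words AACAAT and AACAAAG were there. Only exact words were sought, so variants of them may be present.
Trl, chr3L:14759467-14759567, reverse strand: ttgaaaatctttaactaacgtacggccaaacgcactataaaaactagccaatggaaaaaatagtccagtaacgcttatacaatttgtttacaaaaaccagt

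The zinc finger factors su(Hw) and CTCF each had 1 optimal summit, near the start and of middle rank. At su(Hw) (FBgn0003567, 14304455 to 14308589 on 3R, reverse strand), which blocks enhancers at the gypsy insulator, the summit at 14308851 was 262 bp upstream of the only start. It lay between that start and the start of Polr2I, a subunit of RNA polymerase II, which was 238 bp from the summit on the other side. Its signal was 197 in the pool, and 62.1, 66.3 and 68.8 in replicates 1, 2 and 3, with ranks of 4022, 3753 and 3629. The 3 replicate summits lay within 9 bp of each other. This window was the only 1 of the 8 strongest with AACAAT, shown in capitals on the other strand, 41 bp from the summit.
su(Hw), chr3R:14308801-14308901, reverse strand: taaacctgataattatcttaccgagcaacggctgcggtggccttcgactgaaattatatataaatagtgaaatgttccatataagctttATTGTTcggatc

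CTCF (FBgn0035769, 7353578 to 7356713 on 3L, reverse strand), the fly homologue of the main vertebrate insulator protein, had its optimal summit at 7356583, 130 bp downstream of its start. The signal was 149 in the pool, and 40.8, 46.6 and 60.8 in replicates 1, 2 and 3, with ranks of 6849, 6174 and 4338. Replicate 3 ranked it highest. A weaker summit of the relaxed list lay 77 bp upstream of the start with a signal of 60.2 and rank 13325, and all 3 replicates had a summit within 100 bp of that one too, at ranks of 10329, 22312 and 15763.

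**Figure D3:**
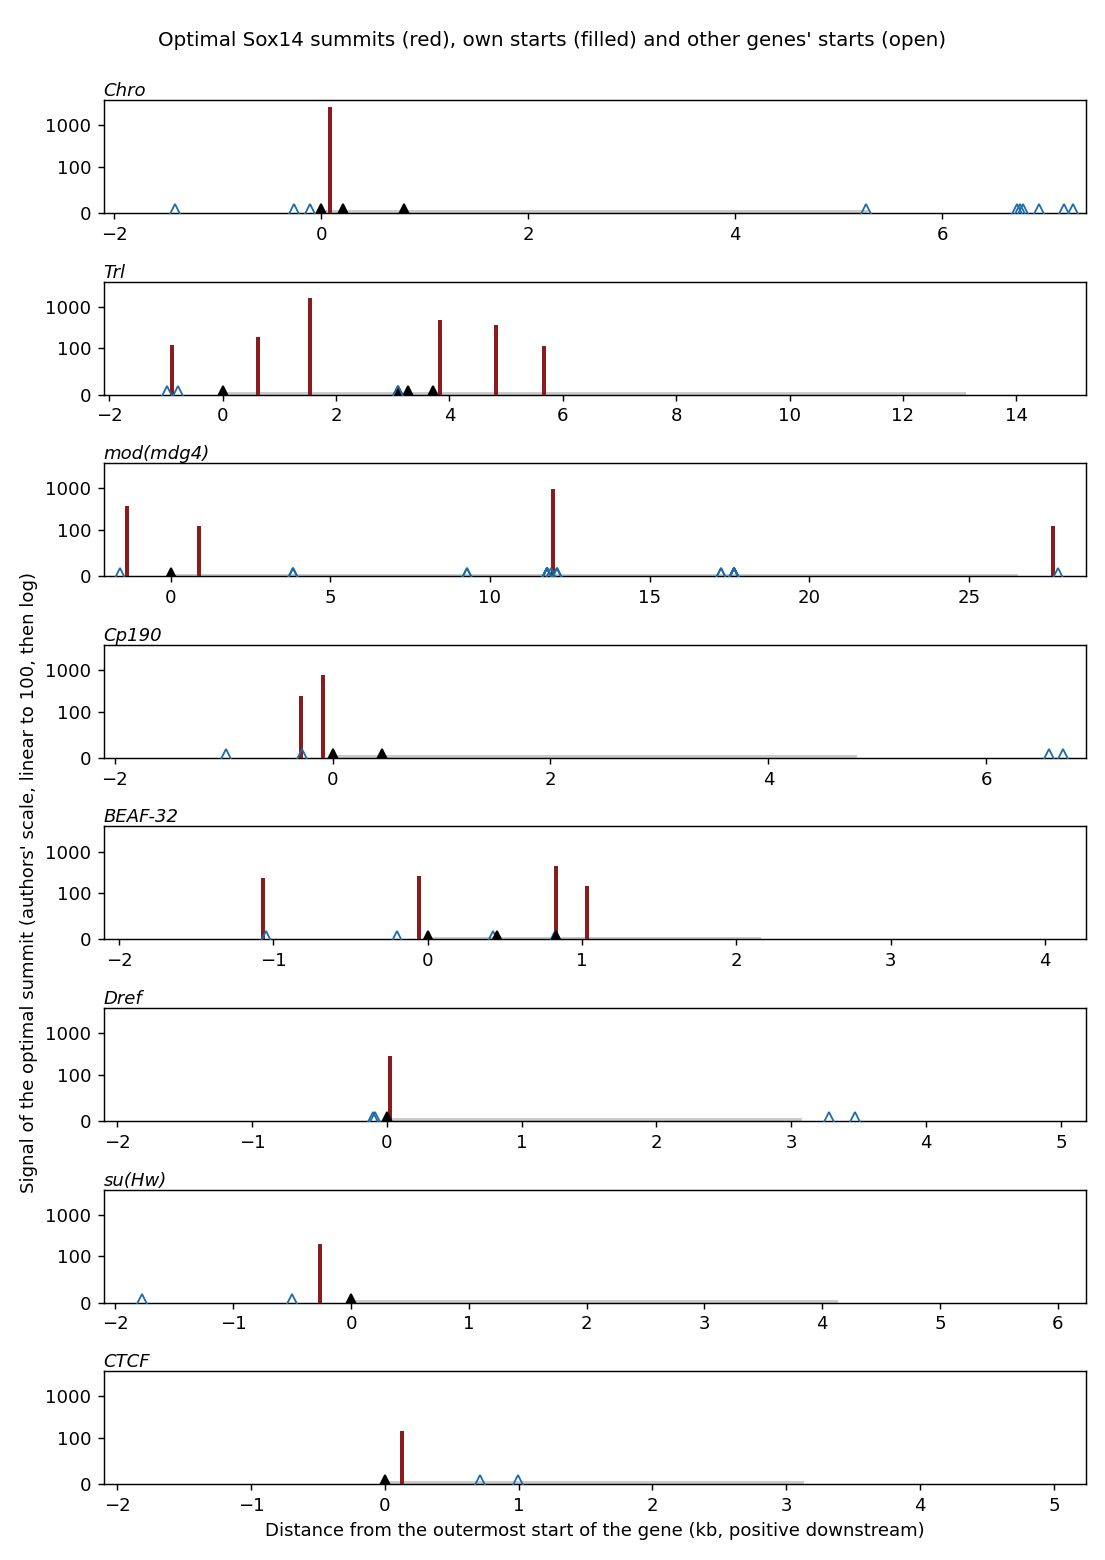
Signal of the optimal summits (red lines, y axis linear to 100 and then log, authors' scale) along each gene (grey) and 2 kb on either side, by distance from the outermost start (x axis, kb). Filled triangles are starts of the gene and open ones starts of other genes. Chro, Dref, su(Hw) and CTCF had 1 summit each, Cp190 had 2, BEAF-32 and mod(mdg4) had 4, and Trl had 6.

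The factors that bind the DRE and its overlapping sequence were Dref and BEAF-32. Dref (FBgn0015664, 9964147 to 9967229 on 2L, reverse strand) had 1 optimal summit, at 9967203, 26 bp downstream of its start. Its signal was 277 in the pool, and 70.8, 87.7 and 118 in replicates 1, 2 and 3, with ranks of 3309, 2380 and 1414, so that replicate 3 was again highest. The start of RpL13, a protein of the large ribosomal subunit, lies on the other strand 84 bp from that of Dref and 110 bp from the summit. CGATA was found 41 bp from the summit. The relaxed list of the pool added a summit of signal 79 near the start of the neighbour CG5850 and one of signal 32.6 at 9967406, beyond the start of RpL13.

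BEAF-32 (FBgn0015602, 14770469 to 14772630 on 2R, forward strand) had 4 optimal summits in the smallest stretch of the 8 genes, 0.649 per kb over the gene and its flanks, against 0.0923 per kb over all protein-coding genes and their flanks. The strongest, at 14771297, was 4 bp upstream of the innermost of its 3 starts and 2 bp from a start of the antisense RNA CR42254. Its signal was 456 in the pool, and 128, 152 and 161 in replicates 1, 2 and 3, with ranks of 1279, 847 and 795. A summit of signal 258 lay 58 bp upstream of the outermost start and ranked 1584, 3001 and 3468, so replicate 1 was lowest at the one and highest at the other. Another, with a signal of 151, lay 201 bp downstream of the innermost start, and replicate 2 had no summit within 100 bp of it but one at 14771609, of rank 7038. Its peak, 14771290 to 14771713, overlaps that of the strongest summit, 14771161 to 14771496. The last, with a signal of 227, was 20 bp from the start of the neighbour Spred, a negative regulator of Ras signalling, and 1066 bp upstream of BEAF-32.

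The genes had the same order in each of the 3 replicates as in the pool. The mean rank of the strongest summit was 9 ± 2 at Chro, 36.7 ± 5.13 at Trl, 216 ± 152 at mod(mdg4) and 387 ± 249 at Cp190 (SD, n = 3). It was 974 ± 266 at BEAF-32, 2368 ± 948 at Dref, 3801 ± 201 at su(Hw) and 5787 ± 1299 at CTCF (SD, n = 3). The ranges of mod(mdg4), from 87 to 384, and Cp190, from 176 to 661, overlapped, although mod(mdg4) ranked ahead of Cp190 in each replicate, and the ranges of no other neighbours in this order overlapped. Each replicate list held 30000 peaks, background included. Of these, 12203, 13915 and 13004 in replicates 1, 2 and 3 had a −log10 q of at least 2. Equal length does not show that the lists are alike in depth, which is unknown. Over all 20 optimal summits at the 8 genes, 16 had a summit within 100 bp in every replicate (80%), against 86.9% of the whole optimal list. Another 2 had one in 2 replicates, 1 in 1 replicate and 1 in none. Optimal peaks were selected for agreement between these replicates, so such shares are partly fixed by the selection. With summits required to lie within 50 bp, only 10 of the 20 were in every replicate.

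The position of summits relative to starts was compared with that in the whole list. At the 8 genes, 15 of 20 optimal summits (75%) lay within 500 bp of an annotated start of any gene, against 43.8% of all optimal summits, and the other 5 were intronic. Windows built on genes hold starts by construction, and without the 2 kb flanks the share was 58.3% of 12 summits. The median distance to the nearest start was 128 bp, against 768 bp. An own start was within 500 bp for 10 of the 20, and the other 5 of these 15 lay at starts of Spred, tin, aus, Mgat4a and pre-mod(mdg4)-E. Among the 10, the weaker Cp190 summit was nearer to the start of CG4338, 12 bp away, than to that of Cp190, 293 bp away. The su(Hw) summit was likewise nearer to Polr2I, 238 bp away against 262 bp. The strongest summit was at most 262 bp from an own start at 6 genes, and the exceptions were Trl and mod(mdg4). The median length of the 8 genes was 4472 bp, against 2166 bp for all protein-coding genes. Their windows held 0.212 optimal summits per kb, against 0.0923.

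All 8 genes had an optimal summit within 1 kb of an own start, against 33.5% of all protein-coding genes. Among genes with any pooled relaxed summit within 1 kb of a start the share was 65.9%. One of the 1000 highest optimal summits lay in or within 2 kb of 5 of the 8 genes, against 10.1% of all genes, and within 1 kb of an own start at 4 of the 8, against 5.64%. A coding start on the other strand lay within 1 kb upstream at 5 of the 8 genes, Chro, Cp190, su(Hw), Trl and Dref, against 35.2% of all genes. That feature was looked for after the positions had been seen. The list is short and was chosen by hand with earlier results of these data known. These are therefore counts beside a background, with no test.

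**Figure D4:**
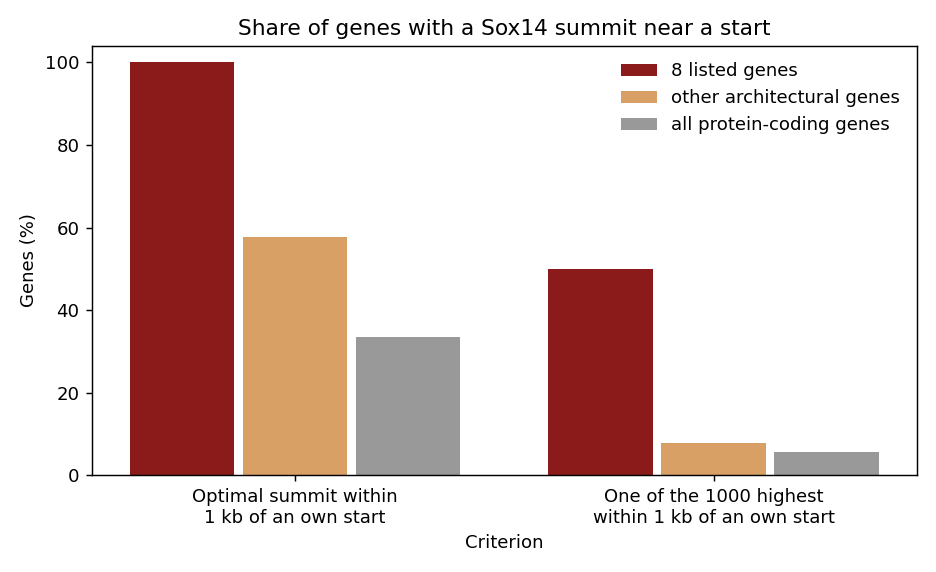
Share of genes (y axis, %) with an optimal summit within 1 kb of an own start, and with one of the 1000 highest there, among the 8 listed genes, 26 other architectural genes and all protein-coding genes. The bars are 100, 57.7 and 33.5% for the first criterion and 50, 7.69 and 5.64% for the second.

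The promoters were searched for the DRE, TATCGATA, which reads the same on both strands and is the sequence that the Dref protein binds. In windows from 250 bp before to 50 bp after the outermost start, it was present at BEAF-32, CTCF, Cp190 and mod(mdg4), 4 of the 8, against 9.36% of all protein-coding promoters. The DRE was 1 of 7 words sought in these windows. Its shorter part CGATA was at 5 of the 8 promoters, against 47.4%. The Sox word AACAAT was at 2 of the 8, against 32.1%. Each remaining word was at 0 of the 8, against shares from 0.688 to 29.7%. The centre of the DRE was 206 bp upstream of the outermost start at BEAF-32, 18 bp upstream at CTCF, 1 bp upstream at Cp190 and 51 bp upstream at mod(mdg4). No window of 50 bp on either side of the 20 optimal summits held it, and 1.73% of such windows in the whole list did. The nearest optimal summit was 148 bp from the word at BEAF-32, 148 bp at CTCF, 84 bp at Cp190 and 942 bp at mod(mdg4). The weaker summits of the relaxed list were nearer at CTCF, 59 bp away, and at mod(mdg4), 23 bp away. A match to a word is a description and does not show that a protein binds there. The stretches run from 150 bases before the start to 20 from it onwards for the 3 genes on arms 3L and 3R, with TATCGATA and the other words sought in capitals.
Cp190, chr3R:15275222-15275391, reverse strand: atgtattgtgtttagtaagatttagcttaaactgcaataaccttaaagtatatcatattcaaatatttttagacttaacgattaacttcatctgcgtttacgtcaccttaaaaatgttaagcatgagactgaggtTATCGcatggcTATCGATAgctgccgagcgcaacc
CTCF, chr3L:7356694-7356863, reverse strand: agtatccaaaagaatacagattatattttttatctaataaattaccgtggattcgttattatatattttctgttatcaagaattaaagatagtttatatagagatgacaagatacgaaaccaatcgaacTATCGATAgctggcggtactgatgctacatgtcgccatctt
mod(mdg4), chr3R:21377382-21377551, reverse strand: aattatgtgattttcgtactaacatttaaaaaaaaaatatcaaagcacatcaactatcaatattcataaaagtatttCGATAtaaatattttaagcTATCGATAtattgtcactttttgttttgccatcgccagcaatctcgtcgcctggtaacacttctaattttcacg

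In the Cp190 stretch the capitals also mark a second copy of CGATA beside the DRE, and the strong summit lies 85 bp upstream of the start, within the stretch. The shorter word CGATA, which is part of the DRE, was in 5 of the 20 summit windows (25%), at Chro, Dref and 3 of the BEAF-32 summits, against 15.6% of all optimal summits. Of the Sox words, AACAAT was in 3 of the 20 windows (15%), against 12.2%, and AACAAAG in 2 (10%), against 6.39%. These shares rest on few windows and stand near those of the whole list. GAGAG was in 2 windows (10%), against 12.3%, and the CTCF word AGGTGGCG in none, against 0.343%.

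A further 27 genes of insulators, interbands, condensin and cohesin were listed, and 26 of these were found by symbol. An optimal summit lay within 1 kb of an own start at 15 of the 26 (57.7%), against 33.5% of all protein-coding genes. Of the 15, insv and Elba2 share the same summit, of rank 8986. At least a relaxed summit lay there at 20 of the 26, and at 7100 of all 13945 protein-coding genes. The strongest was at lola, a BTB transcription factor, with a signal of 675 and rank 368, followed by SMC1, a cohesin subunit, with a signal of 574, rank 546 and a summit 40 bp from the start. Next came fs(1)h, a bromodomain protein of the BET family, with rank 1538, psq, a BTB protein that binds GAGA sequences, with rank 2103, and Cap-H2, a condensin subunit, with rank 2254. Within 1 kb of an own start, only lola and SMC1 had one of the 1000 highest summits, 2 of the 26 (7.69%), against 5.64% of all genes. JIL-1, the histone H3 kinase that acts with Chro on interbands, had rank 2862 within 1 kb of a start but a summit of rank 221 in the gene or within 2 kb, and psq likewise had one of rank 842 there. The 11 genes without an optimal summit within 1 kb were the insulator factors dwg, ZIPIC, Ibf1, Ibf2, Elba1 and Elba3, the chromatin factor Clamp, the ubiquitin ligase Topors, and the cohesin genes vtd, SMC3 and Nipped-B.

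Genes with ranks most like those of the leading members were sought by the sum over the 3 replicates of the absolute log2 difference in rank. For Chro these were CenG1A and mRpS23, which share a summit of rank 11 that ranked 10, 11 and 12 in replicates 1, 2 and 3, a sum of 0.93. For the intronic summit of Trl they were CG8360 and CG8372, which share a summit of rank 37 that ranked 36, 35 and 37, a sum of 0.482. Likeness of rank in 3 lists describes the size of the peaks only.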

How the data were processed

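The authors deposited narrowPeak lists for builds dm6 and dm3, per the deposited text descriptions: a relaxed list for each replicate and for the pool, called with a control, and an optimal list thresholded on the irreproducible discovery rate. The sources used here name no aligner, peak caller or threshold (not given in them). Each peak has the authors' signal, on a scale of its own per list, used only to rank peaks, and the authors' −log10 q value, from which q values were computed. In the optimal list 9198 of 9316 peaks share the highest −log10 q, 4.26. Every optimal peak was in the pooled list and among its 9316 highest. Peak ends of the dm6 lists lay within the arms of Release 6, and sequence was read from RefSeq's copy of it, genes from Ensembl release 115. The dm3 lists were not used.

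Summits are column 2 plus column 10, written 1-based. Starts are those of all transcripts except transposable elements. Replicates share a summit within 100 bp. The 7 words spelled out above were sought on both strands, and each DRE also counts as CGATA. Summit assignment and the word search were tested on simulated data. No test across genes was made. Members, gene lists and words were chosen with earlier results of these data known. Named genes were the members, the 5 other architectural genes with the highest signal within 1 kb of a start and all of them with no optimal summit there, the nearest other starts, and 2 genes of similar ranks for each of 2 members. JIL-1, insv, Elba2 and Tsen34 were named after their values were seen. Python 3.11.15 and pandas 2.3.3 were used.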

Additional observations from a re-analysis of the deposited data

How the results depend on the processing

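Of 44 recomputed values for the main counts, shares and ranks, 35 were counted as close to the reported ones. That label was broad. Among the 4658 highest peaks it took in falls from 8 to 6 genes with a summit within 1 kb and from 20 to 14 optimal summits. It also took in a fall from 75 to 58.3% of summits within 500 bp of any start, without flanks. With each replicate left out in turn, all 8 genes kept an optimal summit within 1 kb of an own start. Leaving out a replicate meant keeping optimal summits with a summit within 100 bp in both other replicates, and no list was called anew. The optimal list was selected for agreement between the replicates, so this outcome was partly fixed. An optimal summit lay within 500 bp of an own start at 7 genes, and within 1 kb among the 4658 highest peaks at 6. Without flanks the 20 optimal summits became 12 and the 30 pooled relaxed ones 15, and flanks of 5 kb gave 46 relaxed ones. Leaving out summits nearer to a start of another coding gene left 13 optimal ones. The 16 summits in every replicate became 10 within 50 bp. The median rank of the 8 strongest summits was 573 in the pool. It was 680 when each rank was the mean over the 3 replicate lists. With the mean over the 2 remaining replicate lists it was 643 to 741, and the pool was not rebuilt for this. By q value, where most optimal peaks are tied, it was 4600. A listed word was in 5 of the 8 strongest windows of 50 bp on either side of the summit, and in 2 of narrower windows with 25 bp on either side. The share of all optimal summits with any of the 7 words is not given here, so this count is not read as a trait of these genes. No direction was compared, so none could turn. The cause of these shifts was not tested, beyond the smaller windows and ties by construction. No paired analysis was possible because the series has 1 group. With no read counts, sequencing error could not be put on any value.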
